A study of Mus musculus with 72 samples.

Results

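Liver transcription at midday was compared with that at midnight in mice that had neither a hepatocyte clock nor microbes. All 3 libraries from germ-free (GF) liver-specific Bmal1 knockout (LKO) mice collected at zeitgeber time 6 (ZT6, with ZT0 at lights on) were set against all 3 libraries from GF LKO mice at ZT18, so that 6 of the 72 libraries of the series entered the comparison. LKO mice were adult male C57BL/6J mice that carried Bmal1 fl/fl together with Albumin-Cre, and their wild-type (WT) controls carried the floxed alleles without Cre. The GF mice were kept in isolators and the specific pathogen-free (SPF) mice in conventional housing, and whole livers of WT and LKO mice in both housings were collected every 4 h, giving 18 libraries in each of 4 groups and 3 at each ZT of a group. Food was not withheld. Albumin-Cre acts mainly in hepatocytes, so other cells of these livers could keep Bmal1, and the clocks of the brain and of other organs were intact. The question the comparison addresses is which day-night differences are present in liver when feeding and systemic rhythms act on it without its own clock and without gut microbes.

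In a liver with a working clock, BMAL1 and CLOCK drive transcription of the Per and Cry genes, whose products repress that drive, and of Nr1d1, whose product REV-ERB alpha represses Bmal1 in turn. Mice feed mostly in the dark, and the liver also follows feeding, body temperature and hormones: insulin and nutrients raise lipid synthesis, a meal increases the load of proteins folded in the endoplasmic reticulum (ER), body temperature acts on heat shock factor 1, and fasting acts through glucagon and PPAR alpha. These inputs can vary over the day whether or not the hepatocyte clock is running.

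Gene-level read counts were deposited for all 72 libraries, with 18160529 to 18871665 counted reads per library at ZT6 and 17623284 to 18800162 at ZT18. Bmal1 (listed as Arntl) lay between 7.04 and 13.4 CPM (counts scaled to a library total of 1000000) in the 18 GF LKO libraries. The table gives no counts by exon and other liver cells could keep Bmal1, and the source of these reads was not tested. Npas2, which BMAL1 targets repress, was at 16.9 to 44.5 CPM in the GF LKO libraries and at 0 to 12.8 CPM in the GF WT libraries. In Npas2 no GF LKO library stood against its genotype label. Arntl varied little over the day in GF LKO liver, so it gives little check on the ZT labels of these libraries. In the groups used for comparison, 4 libraries stood against their labels in clock genes. The library labelled SPF LKO ZT18 replicate 1 had 1.82 CPM of Npas2, against 36.7 and 27.5 CPM in the other two. The library labelled SPF LKO ZT14 replicate 2 had 0.219 CPM of Npas2, against 25 and 24 CPM. The library labelled SPF WT ZT14 replicate 3 had 2.12 CPM of Arntl, against 15.8 and 19.5 CPM. The library labelled GF WT ZT6 replicate 3 had 8.21 CPM of Arntl, against 1.62 and 2.43 CPM, and 16.4 CPM of Dbp, against 59.4 and 42.9 CPM. The main values that rest on these libraries are given with and without them. Hepatocyte markers were abundant in both groups, with a sum over 7 genes of 59864 to 72135 CPM at ZT6 and 62389 to 72187 CPM at ZT18. Of these 7, the fibrinogen gene Fgb passed the test (log2 fold change 0.45, adjusted p = 0.0333), and it no longer did without ZT6 replicate 3 (adjusted p = 0.113), ZT18 replicate 1 (0.104) or ZT18 replicate 3 (0.0815). The 8 Kupffer cell markers summed to 218 to 282 CPM at ZT6 and 180 to 221 CPM at ZT18 with a median log2 fold change of 0.36, and none of them passed the test. In whole liver, fewer cells of a type and less RNA per cell cannot be told apart.

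Of 13494 genes tested, 2321 (17.2%) differed between ZT6 and ZT18 at an adjusted p under 0.05 (edgeR's quasi-likelihood test, Benjamini-Hochberg adjustment), with 1153 (8.54%) higher at ZT6 and 1168 (8.66%) lower. Fold changes here and throughout are log2 of ZT6 over ZT18, so that a positive value means higher at midday. Most differences were moderate, with a median size of 0.56 on the log2 scale among called genes, and 417 genes (3.09%) were called with a size of at least 1. In 4455 genes (33%) the 3 libraries of ZT6 did not overlap the 3 of ZT18, and 2220 of the 2321 called genes were among them. Leaving out 1 library lowered the count to between 1509 and 1906, and it was 1509 without ZT18 replicate 1 or ZT18 replicate 3 and 1536 without ZT6 replicate 3.

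The other ZTs of the GF LKO series placed these genes in the day. Among the genes higher at ZT6, 744 (64.5%) had their highest mean at ZT6 itself, 252 (21.9%) at ZT10 and 105 (9.11%) at ZT2. Their lowest mean was at ZT18 for 724 (62.8%) and at ZT14 for 326 (28.3%). Among the genes lower at ZT6, 782 (67%) had their highest mean at ZT18 and 290 (24.8%) at ZT14, whereas 759 (65%) had their lowest mean at ZT6. The choice of genes by ZT6 against ZT18 itself favours these 2 times.

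By pathway list, every call among the genes of protein folding and of lipid and sterol synthesis was toward midnight. The median fold changes of the clock, glycogen, amino acid and detoxification lists lay between -0.08 and -0.01, and the median over all tested genes was 0.00.

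**Figure D1:**
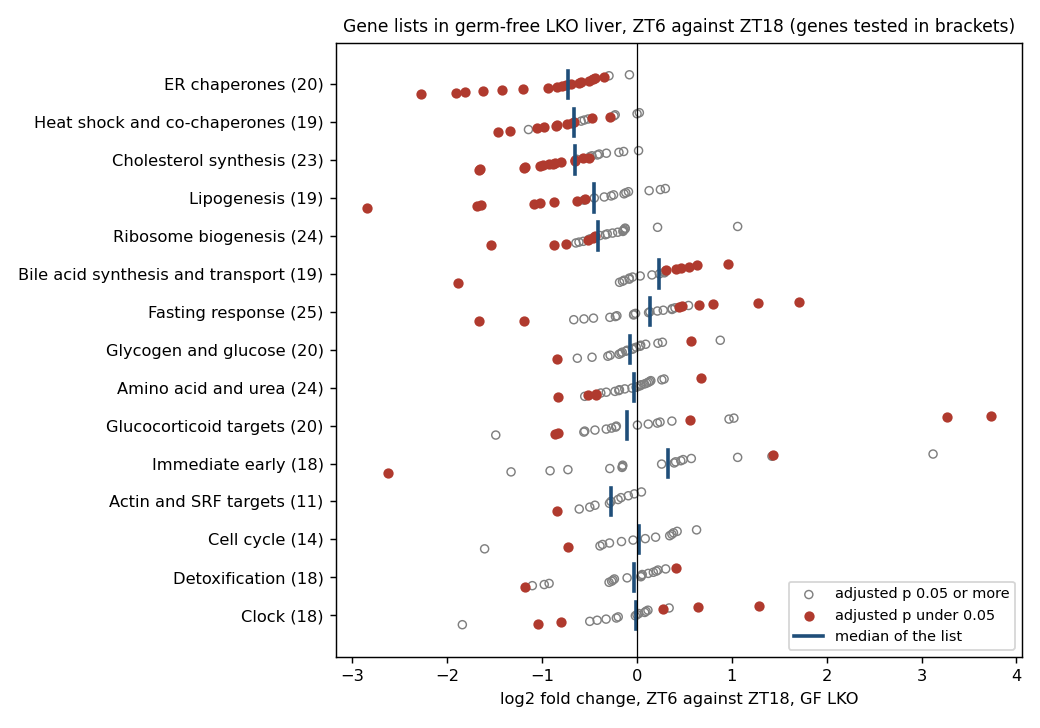
Log2 fold change of ZT6 over ZT18 in GF LKO liver (x axis) for every tested member of 15 gene lists, with 1 point per gene, filled where edgeR's adjusted p was under 0.05, and a bar at the list median. The ER chaperone list has all 20 genes on the midnight side with a median of -0.72, and the clock list is centred at -0.01.

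Most chaperone genes of the ER were higher at midnight. Of 20 genes for ER chaperones, folding enzymes and their regulators, 17 were lower at ZT6 and none was higher, beside 8.66% lower among all tested genes. All 20 had a negative fold change, the median was -0.72, and in 19 of them the libraries of the 2 times did not overlap, beside 16.8% of all tested genes that were separate with ZT6 lower and 16.3% with ZT6 higher. With 1 library left out, 13 to 15 members were called lower. The summed level of the list was 4601, 4582 and 4533 CPM at ZT6 and 7568, 8493 and 7437 CPM at ZT18.

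Hspa5 (chr2:34771970-34777547, GRCm38) encodes BiP, the main HSP70 chaperone of the ER. It had 664, 722 and 728 CPM at ZT6 and 1821, 2179 and 1676 CPM at ZT18. Every midnight library was above every midday library, with means of 705 ± 35.2 and 1892 ± 259 CPM (SD, n = 3 each), a log2 fold change of -1.42 ± 0.19 (SE) and an adjusted p of 0.000129. Creld2, an ER-resident protein with disulfide isomerase activity, showed the steepest change of the list. Its level was 17.7, 18.6 and 17.6 CPM at ZT6 and 87.7, 95.2 and 78.3 CPM at ZT18. The groups were far apart and the midday libraries nearly equal (log2 fold change -2.27 ± 0.38, adjusted p = 0.000659). Hyou1, an ER member of the HSP110 family that serves BiP as a nucleotide exchange factor, had 87.8, 67.8 and 74.6 CPM at ZT6 and 308, 259 and 296 CPM at ZT18 (-1.90, adjusted p = 9.87e-05). Manf, a secreted ER stress protein, had 48.9, 61.6 and 59.5 CPM at ZT6 and 190, 230 and 180 CPM at ZT18 (-1.81, adjusted p = 0.000138). Dnajb11, a DNAJ co-chaperone of BiP, fell by 1.20 on the log2 scale from midnight to midday (adjusted p = 5.24e-05). These 3 genes also showed no overlap between the times. Hspa5, Creld2, Manf and Dnajb11 had their highest mean at ZT18 and their lowest at ZT6 among the 6 ZTs, and Hyou1 was highest at ZT14.

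Promoters were searched for 6 motifs in members of 5 lists. The ER chaperone promoters were searched for the ER stress element, CCAAT followed after 9 bases by CCACG, which ATF6 and NF-Y are known to bind, on both strands from 250 bases before to 50 bases after the RefSeq start (GRCm38.p6). The motif was found in 39 of 32851 promoters (0.119%) and in 6 of the 17 ER chaperone genes that had a promoter entry (35.3%). Shares of a list count genes, whereas the shares beside them count promoters. Both rest on sequence and on how the lists and motifs were chosen, and they use no value of these libraries. The other motifs were counted likewise. The heat shock element was found in 4 of 15 heat shock genes (26.7%, beside 0.603% of all promoters). Of these, Hspd1 and Hspe1 lie on opposite strands of the same chromosome, and their matches were reverse complements of each other. These 2 are thus not separate evidence, and neither gene was called (adjusted p = 0.997 and 0.223). The E-box CACGTG was in 5 of 16 clock genes (31.2%, beside 7.15%), and the D-box in 1 of the same 16 (6.25%, beside 0.938%). The sterol regulatory element was in 1 of 15 cholesterol genes (6.67%, beside 0.551%). The cAMP response element was in 0 of 18 fasting-responsive genes (beside 1.79%). The ER stress element is shown because its list had the largest share of called members among the 5 lists. The 250 bases upstream of 4 of these 6 genes are given 5′ to 3′ on the gene's strand, with the element in capitals. Hspa5, Creld2 and Dnajc3 stand for the called members, and Pdia6 for a member that holds the element and did not pass the test.
Hspa5: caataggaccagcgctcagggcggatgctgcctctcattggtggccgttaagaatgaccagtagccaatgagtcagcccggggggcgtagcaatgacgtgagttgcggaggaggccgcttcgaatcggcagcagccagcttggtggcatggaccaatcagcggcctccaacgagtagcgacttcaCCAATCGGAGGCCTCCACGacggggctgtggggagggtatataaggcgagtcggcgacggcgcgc
Creld2: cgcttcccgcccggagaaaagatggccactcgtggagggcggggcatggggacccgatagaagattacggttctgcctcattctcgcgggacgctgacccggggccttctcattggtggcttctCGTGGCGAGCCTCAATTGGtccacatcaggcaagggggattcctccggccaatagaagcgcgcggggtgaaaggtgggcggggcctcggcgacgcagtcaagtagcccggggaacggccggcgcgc
Dnajc3: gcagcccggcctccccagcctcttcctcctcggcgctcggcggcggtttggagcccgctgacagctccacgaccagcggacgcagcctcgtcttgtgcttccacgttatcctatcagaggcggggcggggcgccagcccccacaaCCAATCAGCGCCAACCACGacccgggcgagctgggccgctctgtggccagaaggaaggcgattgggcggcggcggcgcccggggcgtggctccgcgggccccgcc
Pdia6: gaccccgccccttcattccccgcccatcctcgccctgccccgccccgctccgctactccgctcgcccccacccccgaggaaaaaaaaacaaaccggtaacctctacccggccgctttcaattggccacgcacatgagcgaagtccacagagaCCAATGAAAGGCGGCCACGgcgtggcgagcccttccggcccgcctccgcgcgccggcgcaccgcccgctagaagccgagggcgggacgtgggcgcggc

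The stretches are chr2:34771840-34772089 on the plus strand for Hspa5, chr15:88819396-88819645 on the plus strand for Creld2, chr14:118937682-118937931 on the plus strand for Dnajc3 and chr12:17266339-17266588 on the plus strand for Pdia6. The element begins 65 bases upstream of the start in Hspa5, 126 in Creld2, 105 in Dnajc3 and 98 in Pdia6, and it lies on the opposite strand in Creld2. Dnajc3, a co-chaperone of BiP that also inhibits the eIF2 alpha kinase PERK, had 239, 252 and 282 CPM at ZT6 and 429, 491 and 384 CPM at ZT18 (-0.75, adjusted p = 0.0016). Pdia6, a protein disulfide isomerase, had 312, 347 and 357 CPM at ZT6 and 389, 478 and 384 CPM at ZT18 (-0.30, adjusted p = 0.107). The element thus stood in promoters of genes with large, moderate and uncalled differences, and a match of letters does not show that a factor was bound.

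Called heat shock genes had the same direction. Of 19 members, 11 were lower at ZT6 (57.9%, beside 8.66% of all tested genes) and none was higher, with a median of -0.66 and 8 to 10 called when 1 library was left out. Hsph1, an HSP110 chaperone (chr5:149614287-149636376, GRCm38), had 36.4, 37.3 and 46.2 CPM at ZT6 and 93.7, 129 and 109 CPM at ZT18. The groups were separate, with the lowest midnight library well above the highest midday library (-1.46 ± 0.27, adjusted p = 0.00162). Stip1, which links HSP70 to HSP90, had 54.7, 42.7 and 57.1 CPM at ZT6 and 101, 101 and 103 CPM at ZT18 (-0.98, adjusted p = 0.000433). Hspa8, the constitutive HSP70, had 185, 143 and 158 CPM at ZT6 and 272, 299 and 302 CPM at ZT18 (-0.84, adjusted p = 0.000985). Both were separate by time in all 6 libraries. The inducible Hspa1b fell from 17.1 ± 4.86 CPM at ZT18 to 6.75 ± 1.93 CPM at ZT6 (SD, n = 3; adjusted p = 0.013), but it has a near-identical copy, Hspa1a, and reads shared by the 2 were not counted. The 2 cold-inducible RNA-binding protein genes went opposite ways. Cirbp, induced by mild cooling, had 20.4, 22.6 and 22.2 CPM at ZT6 and 10.7, 8.49 and 9.63 CPM at ZT18, and was higher at midday in every library (1.18 ± 0.19, adjusted p = 0.000524). Rbm3 was lower at midday (-0.55, adjusted p = 0.0401), and this call was lost when any 1 library other than ZT6 replicate 2 was left out (adjusted p 0.0636 to 0.155).

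Chaperone genes were called toward midnight in each of the other 3 groups too, including both WT groups, and few of the differences from GF WT passed a test of their own. In SPF LKO mice 8 of the 20 ER chaperone genes were lower at ZT6 (15 of 20 with the libraries at odds with their labels left out), beside 0.585% lower among all tested genes, with a median of -0.72 (-0.81). In GF WT mice 1 of 20 was lower (2 without ZT6 replicate 3), beside 2.67%, with a median of -0.39 (-0.38). In SPF WT mice 7 of 20 were lower (6 with the library at odds with its label left out), beside 2.8%, with a median of -0.44 (-0.44). For heat shock genes the counts were 6 of 19 in SPF LKO (13 of 19 with those libraries left out), 3 of 19 in GF WT (5 of 19) and 6 of 19 in SPF WT (6 of 19), with medians of -0.84, -0.30 and -0.76 (-1.01, -0.47 and -0.75). The difference of the day-night change between GF LKO and GF WT was itself tested. It was called for 2 of 20 ER chaperone genes and 0 of 19 heat shock genes, beside 1.31% of 14636 genes. The median difference was -0.40 over the ER chaperone genes and -0.31 over the heat shock genes. The 2 called were the ER stress sensor gene Atf6 (-0.70, adjusted p = 0.0022, and 0.0035 without the libraries at odds with their labels) and Dnajc3 (-0.73, adjusted p = 0.032, and 0.0723 without them). For Hspa5 the difference was -0.78 (adjusted p = 0.279).

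**Figure D2:**
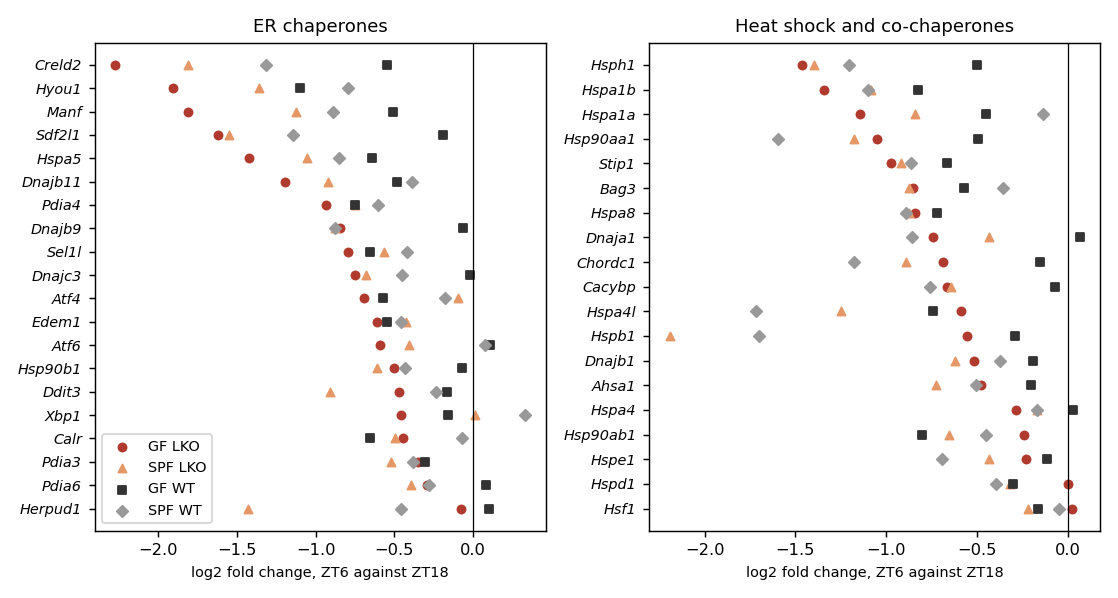
Log2 fold change of ZT6 over ZT18 for the ER chaperone and heat shock genes in GF LKO, SPF LKO, GF WT and SPF WT liver, 1 point per gene and group. The GF LKO points of the ER chaperones all lie below 0, from -2.27 for Creld2 to -0.08.

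Some genes of fatty acid synthesis were higher at midnight. Of 19 tested lipogenic genes, 8 were lower at ZT6 (42.1%, beside 8.66% of all tested genes) and none was higher, with a median of -0.45 and 6 to 8 called when 1 library was left out. The other 11 did not pass the test, and 3 of the 19 had a positive fold change. The summed level of the list was 6430, 7130 and 5264 CPM at ZT6 and 8444, 5563 and 9665 CPM at ZT18, so that ZT18 replicate 2 lay within the midday range. Thrsp (Spot 14, chr7:97412938-97417730, GRCm38), an insulin- and carbohydrate-responsive regulator of lipogenesis, had 95.1, 75.8 and 81.5 CPM at ZT6 and 620, 643 and 551 CPM at ZT18. Its groups stood far apart, at 84.1 ± 9.94 and 605 ± 48.1 CPM (SD, n = 3 each), with a log2 fold change of -2.84 ± 0.18 and an adjusted p of 8.5e-08. Srebf1, the transcription factor that drives lipogenic genes, had 78.6, 49.2 and 53.7 CPM at ZT6 and 242, 125 and 218 CPM at ZT18 (-1.69, adjusted p = 0.000197). Fasn, fatty acid synthase, had 134, 100 and 90.5 CPM at ZT6 and 388, 171 and 453 CPM at ZT18 (-1.64, adjusted p = 0.000503). In both genes ZT18 replicate 2 was the lowest midnight library, yet above every midday library. Elovl6, which elongates long-chain fatty acids, had 58.9, 68.4 and 58.9 CPM at ZT6 and 138, 95.2 and 146 CPM at ZT18 (-1.02, adjusted p = 0.000985).

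Called genes of cholesterol synthesis had the same direction. Of 23 members, 14 were lower at ZT6 (60.9%, beside 8.66% of all tested genes) and none was higher, and 22 had a negative fold change, with a median of -0.65. This count depended on single libraries: it was 7 without ZT6 replicate 3, ZT18 replicate 1 or ZT18 replicate 3, and 18 without ZT18 replicate 2. Mvd, the gene of mevalonate diphosphate decarboxylase (chr8:122433601-122443422, GRCm38), had 26.3, 26.3 and 16.6 CPM at ZT6 and 76.5, 45.1 and 97.1 CPM at ZT18 (-1.66 ± 0.26, adjusted p = 0.000372). Hsd17b7, which acts late in the pathway, had 76.2, 75.1 and 65.3 CPM at ZT6 and 147, 110 and 174 CPM at ZT18 (-0.99, adjusted p = 0.0006). In these 2 genes ZT18 replicate 2 was the lowest of the midnight libraries and above every midday library. This did not hold for the list, in which the 2 times were separate in 9 of 23 members, beside 16.8% of all tested genes. In the summed level of the list ZT18 replicate 2 lay within the midday range, at 4612 CPM against 6488 and 7670 CPM in the other midnight libraries and 3496 to 4635 CPM at midday. Insig1, which retains the sterol sensor SCAP in the ER, fell by 1.02 on the log2 scale (adjusted p = 0.000759). In GF WT mice 10 of these 23 genes were lower at ZT6 (9 without ZT6 replicate 3), beside 2.67% of all tested genes. In SPF LKO mice none was, beside 0.585%, with a median of -0.41 (none and -0.40 with the libraries at odds with their labels left out). In SPF WT mice none was either, beside 2.8%, with a median of -0.11 (none and -0.11 without ZT14 replicate 3). The difference between GF LKO and SPF LKO was not called for any gene.

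Of 19 tested bile acid genes 7 were called. Cyp7a1, the rate-limiting enzyme of bile acid synthesis (chr4:6265612-6275633, GRCm38), had 125, 125 and 252 CPM at ZT6 and 638, 654 and 567 CPM at ZT18. All midnight libraries were higher, with ZT6 replicate 3 at an intermediate level (-1.89 ± 0.34, adjusted p = 0.0012). Cyp7a1 was the 1 member called lower (5.26%, beside 8.66% of all tested genes), and 6 were called higher at ZT6 (31.6%, beside 8.54%), among them Slco1b2, a hepatocyte bile acid and drug importer, with 2001, 1717 and 2226 CPM at ZT6 and 1343, 1595 and 1125 CPM at ZT18 (0.55, adjusted p = 0.00922, and 0.0511 without ZT18 replicate 3). The count of 6 fell to 1 without ZT6 replicate 1, to 2 without ZT18 replicate 3, to 3 without ZT18 replicate 1 or ZT18 replicate 2, and to 4 without ZT6 replicate 3.

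Among fasting-responsive genes 6 of 25 were higher at ZT6 (24%, beside 8.54% of all tested genes) and 2 were lower (8%, beside 8.66%), with a median of 0.14. The 6 higher genes numbered 3 without ZT18 replicate 2 and 4 without ZT6 replicate 2, and the 2 lower genes numbered 1 without ZT6 replicate 1, ZT6 replicate 3 or ZT18 replicate 1. Cpt1a, which admits long-chain fatty acids to mitochondria for oxidation, had 341, 330 and 288 CPM at ZT6 and 195, 192 and 223 CPM at ZT18 (0.66 ± 0.12, adjusted p = 0.00144). Ppara, the nuclear receptor of the fasting response, had 91.9, 67.6 and 65.6 CPM at ZT6 and 46.5, 40.3 and 42.2 CPM at ZT18 (0.81, adjusted p = 0.00122). Angptl4, an inhibitor of lipoprotein lipase, had 118, 161 and 130 CPM at ZT6 and 30.8, 42 and 53.1 CPM at ZT18 (1.71, adjusted p = 0.00117). These 3 genes were higher at midday in every library and peaked on average at ZT10. Plin5, a lipid droplet protein of the same list, went the other way, with 19.97, 28.1 and 30.5 CPM at ZT6 and 67.9, 58.6 and 53.4 CPM at ZT18 (-1.19, adjusted p = 0.000996). Sik1, a kinase gene induced by glucagon signalling, was the other lower gene (-1.67, adjusted p = 0.0132), a call that was lost without ZT6 replicate 1 (0.0537), ZT6 replicate 3 (0.0641) or ZT18 replicate 1 (0.0722). Pck1 and G6pc, the gluconeogenic enzyme genes, did not pass the test. Pck1 had 2770, 2398 and 2532 CPM at ZT6 and 1543, 1703 and 2600 CPM at ZT18, so that ZT18 replicate 3 lay within the midday range (0.40, adjusted p = 0.199). For G6pc the means were 877 ± 105 and 888 ± 60.1 CPM (SD, n = 3; adjusted p = 0.98).

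The shares called in the other lists stood on both sides of the 8.54% higher and 8.66% lower among all tested genes. In the glycogen and glycolysis list 1 of 20 genes was higher (5%), Ugp2, which makes the UDP-glucose that glycogen synthase uses (0.57, adjusted p = 0.00253), and 1 was lower (5%), Pfkfb1 (-0.84, adjusted p = 0.0113, 0.0579 without ZT6 replicate 1 and 0.0524 without ZT18 replicate 3). Of 24 amino acid metabolism genes 4 were lower (16.7%), including the urea cycle enzyme gene Arg1 at 1433, 1520 and 1476 CPM at ZT6 and 1897, 2262 and 2192 CPM at ZT18 (-0.52, adjusted p = 0.00962) and its partner Asl, Gpt2 and Prodh, and Hal, which degrades histidine, was the 1 that was higher (4.17% of the list, 0.68, adjusted p = 0.00203). The 4 lower genes numbered 1 without ZT6 replicate 3 and 2 without ZT18 replicate 3. Of 24 ribosome biogenesis genes 6 were lower (25%) and none was higher, with a median of -0.42, and 3 were called without ZT6 replicate 2, ZT6 replicate 3 or ZT18 replicate 3. Rrp12, a ribosomal RNA processing factor, led them at 3.93, 4.35 and 5.08 CPM at ZT6 and 12.9, 12.3 and 13.8 CPM at ZT18 (-1.54, adjusted p = 0.000257). Of 20 glucocorticoid-responsive genes 3 were higher (15%), namely Mt1, Mt2 and Klf9, and 2 were lower (10%), namely Fkbp4 and Pik3r1, while the classical target Fkbp5 had 17 ± 4.24 CPM at ZT6 and 17 ± 4.52 CPM at ZT18 (SD, n = 3). The 3 higher genes numbered 1 without ZT6 replicate 3 or ZT18 replicate 1. Of the 11 tested actin and SRF genes, 1 (9.09%) was called lower, Actb, cytoplasmic beta-actin, at 345, 273 and 280 CPM at ZT6 and 603, 444 and 566 CPM at ZT18 (-0.84, adjusted p = 0.000349). The cell cycle list had 1 call of 14 (7.14%), the G2 checkpoint kinase gene Wee1 (-0.72, adjusted p = 0.0244), which was lost without ZT6 replicate 2 (0.0808), ZT6 replicate 3 (0.0847) or ZT18 replicate 1 (0.13). Of 18 detoxification genes 1 was called each way (5.56%). Por, the electron donor of cytochrome P450 enzymes, was lower (-1.19, adjusted p = 0.0218, and 0.0617 to 0.099 without ZT6 replicate 2, ZT6 replicate 3 or ZT18 replicate 3), and Ces1g, a carboxylesterase gene, was higher (0.41, adjusted p = 0.0433, and 0.0608 to 0.13 without any 1 library).

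Immediate-early genes varied between libraries of the same time. Their summed level was 143, 329 and 208 CPM at ZT6 and 151, 128 and 141 CPM at ZT18, with ZT6 replicate 2 the highest. In that library Egr1, a serum-induced transcription factor gene, reached 117 CPM against 19.4 and 6.97 CPM in the other midday libraries, and it did not pass the test (adjusted p = 0.116). Of 18 tested members 1 was called each way (5.56%, beside 8.54% and 8.66%). Gadd45b, a stress-induced gene, was lower at ZT6 (-2.63, adjusted p = 0.00594), and Gadd45g was higher (1.44, adjusted p = 0.0499) with overlapping libraries, a call that was lost without any 1 library other than ZT6 replicate 1 (adjusted p 0.0731 to 0.381).

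The genes picked for the largest called differences had to be separate by time in all 6 libraries. They included Tfrc, Tsku, Tuba1c and Aacs toward midnight and Mt1, Gpcpd1 and Slc8b1 toward midday, of which Mt1 is also in the glucocorticoid list. Not every gene picked had a firm call. The histone gene H2afj lost its call without ZT6 replicate 1 (-1.76, adjusted p = 0.0513). Tfrc, the transferrin receptor gene (chr16:32608920-32632794, GRCm38), had 22.2, 36.2 and 15.7 CPM at ZT6 and 136, 186 and 171 CPM at ZT18. The groups were well separated (-2.72 ± 0.31, adjusted p = 3.37e-05). Tsku, which encodes the secreted protein tsukushi, had 12.4, 5.91 and 6.21 CPM at ZT6 and 90.0, 49.6 and 46.7 CPM at ZT18 (-2.93, adjusted p = 3.37e-05). Tuba1c, an alpha-tubulin gene, had 9.04, 5.70 and 9.13 CPM at ZT6 and 38.1, 34.4 and 35.6 CPM at ZT18 (-2.18, adjusted p = 7.59e-06). Aacs, acetoacetyl-CoA synthetase, had 24.8, 26.4 and 27.2 CPM at ZT6 and 121, 95.6 and 111 CPM at ZT18 (-2.06, adjusted p = 0.000414). In each of these 4 genes the lowest midnight library exceeded the highest midday library, which the pick by largest change required. In the other direction Mt1, metallothionein 1 (chr8:94179082-94180327, GRCm38), had 125, 109 and 161 CPM at ZT6 and 8.43, 15.1 and 17.6 CPM at ZT18, a ratio of the means of 9.61 (3.27 ± 0.51, adjusted p = 0.000417). Mt2, another metallothionein gene, had a larger fold at a lower level, with 2.64, 1.55 and 2.54 CPM at ZT6 and 0.0527, 0.407 and 0.0509 CPM at ZT18 (3.73, adjusted p = 0.0285). The call of Mt2 was lost without ZT6 replicate 1, ZT6 replicate 3, ZT18 replicate 1 or ZT18 replicate 3 (adjusted p 0.0629 to 0.104). Gpcpd1, a glycerophosphocholine phosphodiesterase, had 198, 204 and 192 CPM at ZT6 and 43.7, 74.5 and 46 CPM at ZT18 (1.86, adjusted p = 7.19e-05). Slc8b1, the mitochondrial sodium-calcium exchanger, had 78, 53.6 and 45.7 CPM at ZT6 and 16, 11 and 19.2 CPM at ZT18 (1.94, adjusted p = 3.7e-05). Mt1, Gpcpd1 and Slc8b1 were also separate by time in all 6 libraries, as the same pick required.

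**Figure D3:**
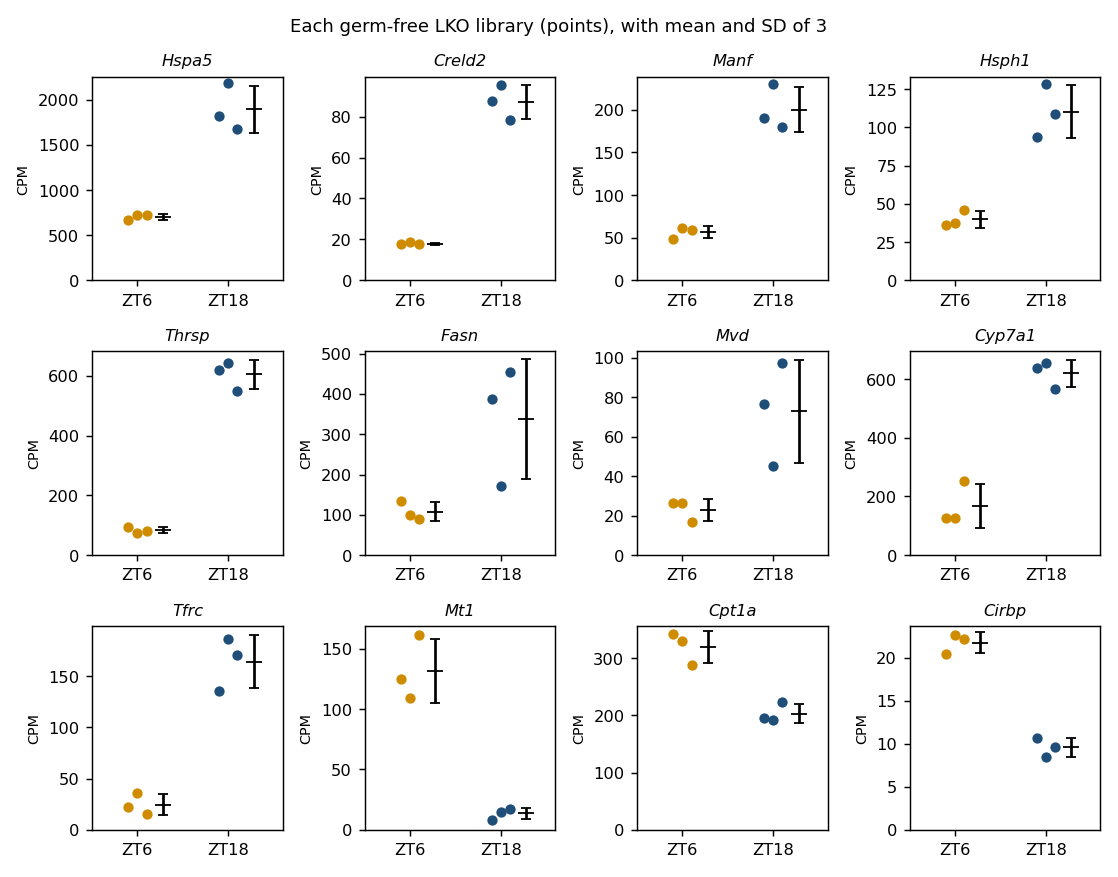
CPM of 12 genes in each of the 3 ZT6 and 3 ZT18 libraries of GF LKO liver (y axis, linear and starting at 0), with 1 point per library and, beside the points, the mean and SD of 3. Midnight libraries are higher for the chaperone, lipid, sterol and bile acid genes and Tfrc, and midday libraries for Mt1, Cpt1a and Cirbp.

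Of 18 tested clock and clock-output genes (Bhlhe41 did not pass the filter), 3 were higher at ZT6 (16.7%, beside 8.54% of all tested genes) and 2 were lower (11.1%, beside 8.66%), with a median of -0.01. Arntl had 11.1, 12.6 and 9.67 CPM at ZT6 and 10.2, 10.6 and 12.3 CPM at ZT18 (0.02, adjusted p = 0.957). Dbp, a direct BMAL1 target that encodes a D-box binding factor, had 3.01, 2.80 and 2.65 CPM at ZT6 and 3.16, 3.26 and 3.31 CPM at ZT18 (-0.20, adjusted p = 0.675). Cry1, a repressor of the clock, had 74.7 ± 10.8 CPM at ZT6 and 69 ± 6.84 CPM at ZT18 (SD, n = 3; adjusted p = 0.542). Per2, a repressor whose transcription also responds to temperature and hormones, was the clock gene with the firmest call. It had 12.7, 16.1 and 11.2 CPM at ZT6 and 29.1, 24.1 and 29.3 CPM at ZT18, without overlap (-1.04 ± 0.18, adjusted p = 0.000832), and no left-out library ended the call. Nr1d2, which encodes REV-ERB beta, was higher at midday (0.65, adjusted p = 0.00524), a call that was lost in a fit of all 72 libraries (0.64, adjusted p = 0.28). In that fit no clock gene was called higher and 1 was called lower. The calls of Nr1d1 and Per3 each depended on a library. Nr1d1 had 3.50, 2.33 and 3.08 CPM at ZT6 and 0.896, 1.05 and 1.68 CPM at ZT18 (1.29, adjusted p = 0.0116, and 0.0609 without ZT18 replicate 1), and Nr1d1 overlaps Thra on the opposite strand, where reads could not be assigned by strand. Per3 was lower (-0.80, adjusted p = 0.0188, and 0.0547 to 0.114 without ZT6 replicate 3, ZT18 replicate 1 or ZT18 replicate 3).

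In GF WT mice the same comparison gave 6 higher and 5 lower of 19 clock genes (6 and 6 without ZT6 replicate 3), beside 2.23% higher and 2.67% lower among all genes, and the change differed between GF LKO and GF WT for 6 of 19, beside 1.31% of 14636 genes. For Arntl the difference was 2.90, since its fold change was -2.88 in GF WT, and it was 3.92 (adjusted p = 1.34e-10) without the libraries at odds with their labels. For Dbp the difference was -4.25 with 4.05 in GF WT, and -4.62 (adjusted p = 2.52e-08) without them. Cry1 differed by 2.39, with -2.28 in GF WT, and by 3.70 (adjusted p = 6.8e-12) without them.

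**Figure D4:**
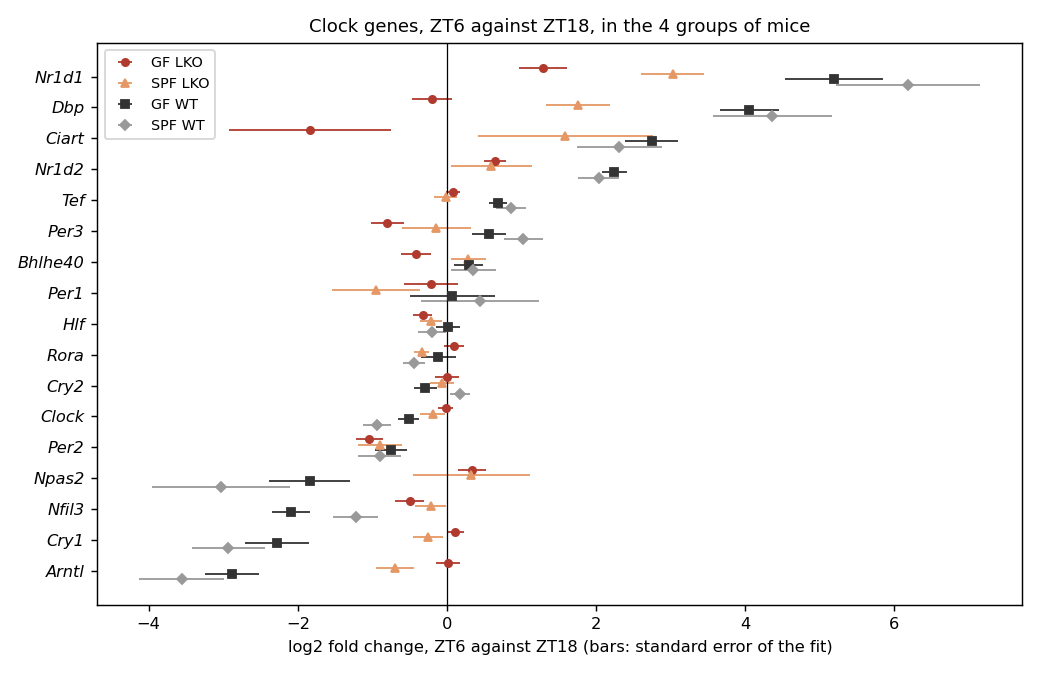
Log2 fold change of ZT6 over ZT18 ± SE for 17 clock genes in GF LKO, GF WT, SPF LKO and SPF WT liver. Arntl and Dbp are near 0 in GF LKO and at -2.88 and 4.05 in GF WT.

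The day-night differences of GF LKO liver were compared with those of the other groups, none of which shared a library with it. Of the called genes tested in GF WT, 1811 of 2291 (79%) changed in the same direction, against 63.3% of all genes, and without GF WT ZT6 replicate 3 it was 1990 of 2297 (86.6%, against 67.1%). In SPF LKO it was 2025 of 2309 (87.7%, against 66.2%), or 2036 of 2309 (88.2%, against 67%) with the libraries at odds with their labels left out. In SPF WT it was 1822 of 2298 (79.3%, against 62.8%), or 1819 of 2302 (79%, against 62.6%) without ZT14 replicate 3. The genes called in the same direction in both groups numbered 265 for GF WT, which is 11.6% of the GF LKO calls and 41.1% of those of GF WT, and 479 (20.9% and 45.3%) without GF WT ZT6 replicate 3. For SPF LKO they numbered 106, which is 4.59% of the GF LKO calls and 77.9% of those of SPF LKO, and 270 (11.7% and 70.7%) without the libraries at odds with their labels. No gene was called in opposite directions in GF LKO and SPF LKO, with or without the libraries at odds with their labels, and 13 were in GF LKO and GF WT (14 without GF WT ZT6 replicate 3).

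The number of called genes differed widely between groups. It was 2321 in GF LKO, 647 of 13203 (4.9%) in GF WT, 715 of 13907 (5.14%) in SPF WT and 137 of 14028 (0.977%) in SPF LKO. The share of genes higher at ZT6 was 2.23% in GF WT, 2.34% in SPF WT and 0.392% in SPF LKO, and the share lower was 2.67%, 2.8% and 0.585%. With a size of at least 1, the share called was 3.09% in GF LKO, 1.48% in GF WT, 1.71% in SPF WT and 0.342% in SPF LKO. Without the libraries at odds with their labels the count was 1067 in GF WT, 913 in SPF WT and 383 in SPF LKO. Leaving out 1 library of ZT6 or ZT18 moved these counts too. SPF LKO gave 11, 10 and 22 calls without ZT6 replicate 1, 2 or 3, and 72 and 25 without ZT18 replicate 2 or 3. GF WT gave 229 and 423 without ZT6 replicate 1 or 2 and 288 to 317 without any 1 ZT18 library, and SPF WT gave 283 to 374 without any 1 library other than ZT6 replicate 1. A count of calls depends on the spread between replicates in a group as well as on the size of its changes, and their parts in these counts were not tested. The counts above come from separate fits, each with the spread of its own group. In 1 fit of all 72 libraries the calls among 14636 genes numbered 1806 in GF LKO, 1131 in GF WT, 1531 in SPF WT and 310 in SPF LKO. With a size of at least 1 they numbered 367, 258, 450 and 99 in the same order, so SPF WT then had the most. When the day-night change was tested for a difference between GF LKO and SPF LKO, 0 of 14636 genes passed with edgeR (smallest adjusted p = 0.174), while 1220 (8.34%) had an unadjusted p under 0.05, and 0 passed with the libraries at odds with their labels left out. The median SE of that difference was 0.231 over the 2321 called genes. For Hspa5 it was -0.38 ± 0.34 (SE). Between GF LKO and GF WT, 191 genes (1.31%) passed, 85 (0.581%) with a higher and 106 (0.724%) with a lower value in GF LKO, and 205 passed with the libraries at odds with their labels left out. The count was 110 without GF WT ZT6 replicate 3 alone, 66 and 75 without GF WT ZT18 replicate 1 or 2, 56 without GF LKO ZT6 replicate 1, and 117, 72 and 118 without GF LKO ZT18 replicate 1, 2 or 3. It reached 257 without GF WT ZT6 replicate 2. Of the 191, 102 were called in GF LKO and not in GF WT, 52 in GF WT and not in GF LKO, 17 in both and 20 in neither. Thrsp was among them, with a difference of -2.46 (adjusted p = 0.01), which was -1.67 without GF WT ZT6 replicate 3 (adjusted p = 0.137) and -1.67 (adjusted p = 0.0303) with all 4 libraries at odds with their labels left out.

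**Figure D5:**
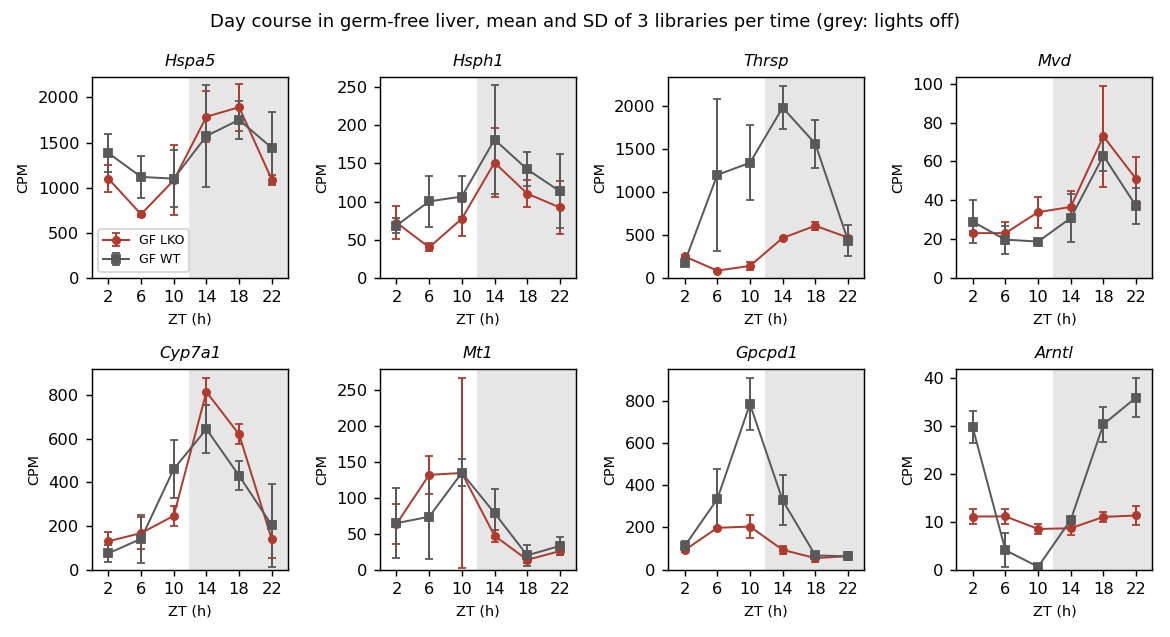
Mean CPM ± SD (n = 3) of 8 genes at the 6 ZTs in GF LKO and GF WT liver, with the dark phase shaded. Hspa5 and Thrsp of GF LKO are lowest at ZT6 and highest at ZT18, Mt1 and Gpcpd1 are high at both ZT6 and ZT10 and lowest at ZT18, and Arntl stays between 8.52 and 11.3 CPM in GF LKO.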

How the data were processed

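Livers of 72 mice were profiled by RNA-seq (TRIzol extraction, stranded mRNA libraries, single-end reads). Per the labels and the study's methods, the authors used STAR 2.6.1b for alignment (mm10, GRCm38) and featureCounts 2.0.0 with the Ensembl release 97 annotation for gene counts, ignoring strand and leaving out multi-mapping reads. The deposited values are raw counts, and symbols and coordinates were added from GENCODE vM21. The table lists 55573 genes, with 17369927 to 22076113 counted reads per library, and no pair of libraries was identical.

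The 18 GF LKO libraries were fitted together with 1 mean per ZT (edgeR 4.0.16, TMM factors, filterByExpr, quasi-likelihood test), and ZT6 was contrasted with ZT18. The other groups were fitted likewise, and differences between groups were tested as contrasts in 1 fit of all 72 libraries with 24 means. P-values were adjusted by the Benjamini-Hochberg method over all genes tested, with a threshold of 0.05. CPM used TMM factors over all 72 libraries. Scripts were tested on simulated data. The members, gene lists and naming rule were chosen with earlier results of these data known: all clock genes, the 12 largest called changes each way among genes with a full symbol, a log2 CPM averaging 1 or more and separate libraries, and up to 5 called members per list, or the 2 most abundant where none was called. Other genes were named after their values were seen. DESeq2 1.42.0, RLE factors, no filter, fewer or more libraries, a replicate block and left-out libraries were tried as alternatives. Leaving out the 4 libraries at odds with their labels was chosen after seeing the data. Motifs were searched in RefSeq promoters (GRCm38.p6). Each library was a separate mouse, and p-values measure the spread between these mice. A few genes are not reported here by name.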

Additional observations from a re-analysis of the deposited data

Results flagged for a closer look

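Atf6 and Dnajc3 aside, 16 genes with values in this text changed differently from ZT18 to ZT6 in GF LKO than in GF WT. Each passed edgeR's test of the difference (adjusted p under 0.05), as did those ER chaperone genes. Each value that follows is the log2 fold change of GF LKO minus that of GF WT, from 3 libraries per time and group. The clock and clock-controlled genes were Arntl (2.90), Cry1 (2.39), Dbp (-4.25), Nfil3 (1.59) and Nr1d1 (-3.90). With the 4 libraries at odds with their labels left out, these 5 were at 3.92, 3.70, -4.62, 2.03 and -4.36, in the same order, and remained called. Nfil3 lost its call without GF LKO ZT6 replicate 1 (adjusted p = 0.086), GF WT ZT6 replicate 1 (0.0537) or GF WT ZT18 replicate 2 (0.0692). Nr1d1 lost it without any 1 of the 12 libraries other than GF WT ZT6 replicate 3 (adjusted p 0.0669 to 0.166).

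Among the largest changes of GF LKO, the difference was -2.46 for Thrsp, -2.69 for Tsku, -3.44 for the histone gene H2afj and -1.33 for Tuba1c. With the 4 libraries left out, Thrsp was at -1.67 (adjusted p = 0.0303), while Tsku (-1.27, adjusted p = 0.367), H2afj (-1.57, adjusted p = 0.575) and Tuba1c (-1.11, adjusted p = 0.147) were no longer called. Each of these 3 also lost its call without several single libraries of GF LKO, and Thrsp without GF WT ZT6 replicate 3 alone (adjusted p = 0.137).

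The other genes were chosen after their values were seen. Ung, uracil-DNA glycosylase, differed by -2.77, Clpx, a subunit of a mitochondrial protease, by 1.88, the tight junction gene Cldn1 by 1.76, Coq8a, needed for coenzyme Q synthesis, by 1.49, and Asap2 by 2.41. Mlec, which encodes the ER lectin malectin, differed by -1.03, and Stat5b, a transcription factor of growth hormone signalling, by 1.26. These 7 remained called with the 4 libraries left out, at -2.62, 1.78, 1.75, 1.31, 2.36, -0.84 and 1.08.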

How the results depend on the processing

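The 2321 genes called between ZT6 and ZT18 in GF LKO numbered 2478 with DESeq2, 2309 with RLE factors, 2477 without the filter, 1670 from the 6 libraries alone, 1806 from all 72 libraries, 2137 from those with 4 left out, 417 with a log2 fold change of at least 1 and 1509 to 1906 with 1 library left out. Of the 2321, 2219 were also called by DESeq2 and 1562 from the 6 libraries alone, with the same sign. Same-numbered ZT6 and ZT18 libraries correlated at 0.17, -0.116 and -0.168, so the numbers do not pair them, and a replicate block gave 2309 calls.

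GF WT gave 1131 calls in a fit of all 72 libraries, 1067 without the library at odds with its label and 229 to 1067 with 1 left out. SPF LKO gave 310, 383 and 10 to 141, and SPF WT gave 1531 and 283 to 665. The 191 genes whose change differed from GF WT numbered 585 without the filter, 162 with the block and 56 to 257 with 1 library left out. The count of 0 against SPF LKO was 295 without the filter, and 0 without any 1 of the 12 ZT6 and ZT18 libraries of both groups. All 295 were genes that the filter kept, with a median of 4.18 in mean log2 CPM. Against GF WT the filter kept 582 of the 585. The cause was not tested.

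Of 94 called genes taken by the naming rule or named after their values were seen, 64 kept their call and 94 their direction under every alternative run. Outside the clock list, the rule took at most 5 called members per list, those with the lowest adjusted p. These counts therefore do not describe the lists as a whole. In the ER chaperone list 17 members were called, and 13 to 15 with 1 library left out. Gadd45g (adjusted p = 0.0526) and Ces1g (0.0562) lost their call under the block. Direction turned only in genes that were not called. Cry2 was at 0.00672 without the filter, 0.016 with the block and -0.14 to 0.14 with a library left out. With a library left out, Alas2 ranged from -0.059 to 0.19, Arntl from -0.083 to 0.12, Cela1 from -0.031 to 0.15, Clec4g from -0.12 to 0.040, Clock from -0.069 to 0.067, Hbb-bs from -0.043 to 0.52, Per1 from -0.52 to 0.25, Ptprc from -0.081 to 0.23, Reln from -0.41 to 0.025, S100a9 from -1.85 to 0.22, Spp1 from -0.18 to 0.0050 and Stab2 from -0.14 to 0.13. With 3 libraries per time, genes near the threshold move across it.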

Other observations

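In the separate fits of the 18 libraries of each group, 25 genes were called in the same direction in all 4 groups. Of these, 11 were higher and 14 lower at ZT6. The count of 25 was 82 with the libraries at odds with their labels left out. It fell to 3, 5 and 8 without SPF LKO ZT6 replicate 1, 2 or 3 and to 12 and 8 without SPF LKO ZT18 replicate 2 or 3. The genes named here were chosen after their values were seen. Crat, carnitine acetyltransferase, had 15.7, 13.8 and 11.6 CPM at ZT6 and 61.8, 39.5 and 51.7 CPM at ZT18 in GF LKO. Its log2 fold change was -1.89 in GF LKO, -1.32 in GF WT, -1.33 in SPF LKO and -1.09 in SPF WT. Acsl3, a long-chain acyl-CoA synthetase, followed at -1.23, -0.92, -0.86 and -0.85 in the same order of groups. In the other direction Syt1, a synaptotagmin gene, had 26.6, 29.2 and 33.6 CPM at ZT6 and 10.3, 7.62 and 7.95 CPM at ZT18, with 1.79, 2.00, 1.45 and 1.81. Erbb4, a neuregulin receptor gene, was at 1.84, 1.72, 2.23 and 2.03, and the caspase gene Casp6 at 1.12, 1.55, 0.83 and 1.23. With the libraries at odds with their labels left out, Crat, Acsl3, Syt1, Erbb4 and Casp6 were at -1.83, -1.16, 2.39, 2.02 and 1.84 in GF WT and at -0.89, -0.82, 1.22, 1.89 and 0.80 in SPF LKO. Midday and midnight libraries of GF LKO did not overlap in these 5 genes.

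Among the 17 genes called in both GF groups whose change differed between them, 12 went in opposite directions (13 of 31 with the libraries at odds with their labels left out). Choosing genes by a called difference favours opposite directions. Without that choice, 265 genes called in both GF groups had the same direction and 13 had opposite directions. Ung had 1.83, 1.97 and 1.46 CPM at ZT6 and 4.16, 5.29 and 3.97 CPM at ZT18 in GF LKO (-1.34), and its log2 fold change in GF WT was 1.43 (1.28 without GF WT ZT6 replicate 3). Clpx had 719, 760 and 788 CPM at ZT6 and 481, 506 and 451 CPM at ZT18 in GF LKO (0.66), and it was at -1.22 in GF WT (-1.11 without that library). Cldn1 had 286, 235 and 213 CPM at ZT6 and 168, 134 and 143 CPM at ZT18 in GF LKO (0.73), and it was at -1.03 in GF WT (-1.02 without that library). Mlec was called in GF LKO, at 130, 127 and 140 CPM at ZT6 and 260, 285 and 265 CPM at ZT18 (-1.03, adjusted p = 3.37e-05), and its log2 fold change in GF WT was 0.00, or -0.18 without that library (difference adjusted p = 0.00578).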
